A study of Mus musculus with 6 samples.

Results

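The cytosolic ribosomal proteins, the protein components of the ribosome that translates messenger RNA in the cytoplasm, were followed at the messenger RNA level in small intestinal tumours and in control intestine of mice. Members were the rows whose symbol is Rpl or Rps with digits and at most a suffix a, l, l1 or x, together with Rplp0, Rplp1, Rplp2 and Rpsa. Pseudogene symbols and the Rps6k kinases were left out. These rules gave 82 of the 23393 named genes, 51 of the large and 31 of the small subunit. Whole tissue was measured by poly(A) RNA sequencing in 3 WT intestine samples and 3 DKO tumours, all from C57BL/6 mice aged 12 weeks. All samples were PKClambda f/f and PKCzeta f/f, that is, homozygous for floxed versions of the genes for the atypical protein kinases C. The WT mice were Villincre-negative, and the DKO tumours came from Villincre-positive mice, in which the recombinase is expressed in intestinal epithelium. Genotype and tissue (intestine or tumour) changed together and cannot be told apart. Each sample is a piece of whole tissue, so fewer cells of a type and less RNA per cell cannot be told apart either. Nothing in the labels says how the animals were related, so p-values measure the spread between these samples.

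Ribosomal protein messengers are short, abundant and produced in near-matched amounts, since each ribosome takes most of these proteins once. Nearly all begin with a 5′ terminal oligopyrimidine (TOP) tract, a run of C and U at the cap, through which the mTORC1 kinase and the binding protein LARP1 control their translation. Their transcription, and that of the machinery that assembles ribosomes, is raised by MYC. In the intestine the highest ribosome production is found in proliferating crypt cells.

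The pyrimidine tract was looked for in the RefSeq promoter sequences (build GRCm38.p6), which matched 62 of the 82 members. The longest uninterrupted run of C and T between 30 bases before and 50 bases after the annotated start, on the transcribed strand, had a median of 10 bases in members and 6 bases over all 27025 genes of the table. A run of at least 8 bases was present in 49 of the 62 members (79%), in 32.3% of all genes and in 30.9% of the other tested genes. Annotated starts can lie some bases away from the true cap site, so the run is shown where it was longest. The first 5 sequences belong to members that rose in DKO tumours and the last 2 to the members of lowest log2 fold change with a matched promoter. Each is 30 bases, 5′ to 3′ on the transcribed strand, with the longest C and T run in capitals.
Rpl27: cggaacgctctgTTCCTgtctgctgctcgt
Rpl11: cggaagTCTCCCTCTCTCTTCCTgttctcc
Rps2: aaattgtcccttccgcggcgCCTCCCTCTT
Rpl12: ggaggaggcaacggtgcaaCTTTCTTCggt
Rpl15: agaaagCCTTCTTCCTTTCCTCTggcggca
Rps27l: cgcctccaCTCCTCTCCactcctccccgcc
Rpl22l1: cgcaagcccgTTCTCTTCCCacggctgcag
These lie on the plus strand at chr11:101442226-101442255 (Rpl27), chr17:24720083-24720112 (Rps2), chr2:32961732-32961761 (Rpl12), chr9:66946056-66946085 (Rps27l) and chr3:28805499-28805528 (Rpl22l1). They lie on the minus strand at chr4:136053357-136053386 (Rpl11) and chr14:18270967-18270996 (Rpl15). The run was 17 bases long in Rpl11 and Rpl15 and 5 bases in Rpl27, so members that rose had both long and short runs, and both of the low members had one of 9 or 10 bases. Relative to the annotated start, the run began at position 41 in Rps2, 40 in Rpl12, 14 in Rpl11 and 2 in Rpl22l1. It began at -4 in Rpl15, -7 in Rpl27 and -22 in Rps27l. Whether any of these runs is the tract at the cap was not tested. Over the 300 bases from 250 before to 50 after the start, read on both strands, the letters CCGGAAG, those of an ETS or GABP site, occurred in 25 members (40.3%), 9.93% of all genes and 18.4% of the other tested genes. The letters CACGTG of the E-box, which MYC binds, occurred in 6 members (9.68%), 8.09% of all genes and 11.4% of the other tested genes. CTTTCC occurred in 33 members (53.2%), 29.3% of all genes and 30.4% of the other tested genes. AAGATGG, the letters of a YY1 site, occurred in 10 members (16.1%), 7.28% of all genes and 8.02% of the other tested genes. TATAAA, those of a TATA box, occurred in 7 members (11.3%), 15.7% of all genes and 9.4% of the other tested genes. For CACGTG and TATAAA the members thus lay on opposite sides of the 2 backgrounds. CTTTCC is itself a pyrimidine run, and CCGGAAG and AAGATGG can share the letters AAG.

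The libraries held 12491561 to 15799269 counts over named genes. Prkcz was at 70, 69.7 and 60.8 CPM in WT intestine 1 to 3 and at 19.3, 16.4 and 14.7 CPM in DKO tumours 1 to 3 (log2 fold change -1.99, SE 0.152, edgeR adjusted p = 0.000233). Prkci was at 53.2, 80.6 and 77.6 CPM and at 98, 80.3 and 103 CPM (edgeR adjusted p = 0.134), counted over the whole gene, so reads outside the floxed part check nothing. WT intestine 1 stood apart from the other WT libraries. Its scaling factor was 0.829, against 0.943 and 0.976, and its level relative to WT intestine 2 and 3 was lower for longer transcripts. Among tested genes that are no members, the median log2 ratio was 0.22 for transcripts of up to 1902 bases and -0.25 for those of at least 4433 bases. Members have a median transcript length of 869 bases. With the length trend of each library taken out, a setting chosen after seeing the data, the member median was 0.39 in place of 0.31. Beyond that fit, the part of this length trend in the members' results was not tested. Values without that library are given beside the main results that it moved. Levels are CPM, read counts divided by library totals that were corrected by the trimmed mean of M-values (TMM), unless uncorrected library totals are named.

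The members took a larger share of the counts in every DKO tumour than in any WT library. They held 1.73%, 1.59% and 1.59% of all counts in WT intestine 1 to 3 and 2.42%, 2.59% and 2.41% in DKO tumours 1 to 3. The groups did not overlap, and the 95% exact binomial interval of a library, which covers counting error only, ran from 1.72% to 1.73% in WT intestine 1, the highest WT library, and from 2.40% to 2.42% in DKO tumour 3, the lowest tumour. The mean share was 1.63% (SD 0.0794, n = 3) in WT intestine and 2.48% (SD 0.101, n = 3) in tumours, a ratio of 1.52. The difference was 0.842 percentage points, and 0.888 points without WT intestine 1. It was 0.816 points when the 10 most counted rows that are no members were left out of the totals. Shares use uncorrected library totals, on which many genes were higher in tumours. On these totals the median log2 fold change was 0.27 over all tested genes and 0.58 over members. Tumours were higher without overlap in 40.1% of all tested genes. No test was made of the members' sum, since the members were chosen with results of these data known.

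**Figure D1:**
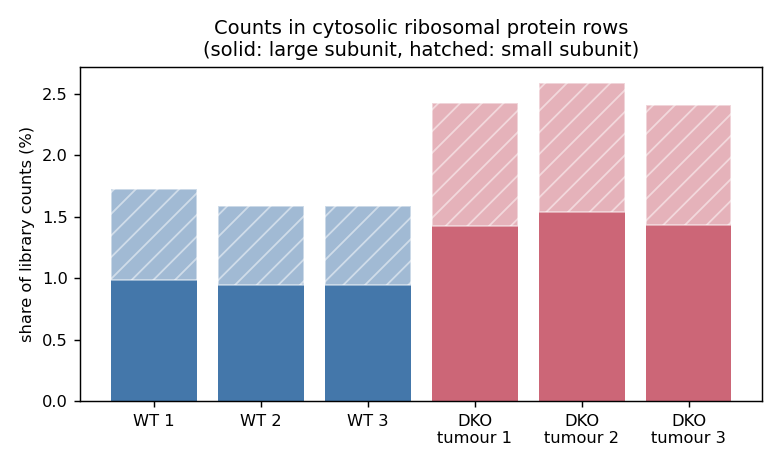
Share of each library's counts, in percent, that fell in the 82 ribosomal protein rows, split into large subunit (solid) and small subunit (hatched) rows. The 3 WT libraries lie between 1.59% and 1.73% and the 3 DKO tumours between 2.41% and 2.59%.

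Both subunits took part. Large subunit rows held 0.958% of the counts in WT intestine (SD 0.0258, n = 3) and 1.47% in tumours (SD 0.0662, n = 3), and small subunit rows 0.676% (SD 0.0536) and 1.01% (SD 0.0379). The ratio of large to small subunit counts was 1.34, 1.45 and 1.47 in WT intestine 1 to 3 and 1.42, 1.47 and 1.47 in DKO tumours 1 to 3. WT intestine 1 was the lowest of the 6, and the other libraries of both groups overlapped.

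Of the 82 members, 77 had at least 10 counts in 3 or more libraries and were tested, and 75 of these had a mean of at least 10 CPM. The 5 untested members were Rpl10l, Rpl39l and Rpl3l, paralogs of narrow tissue range (testis for the first pair, striated muscle for the last), and Rpl26 and Rpl30, which are core proteins of the large subunit. Rpl26 had 0 counts in every library and Rpl30 had 1 to 8 counts per library. The core proteins Rpl34 and Rps27 passed the filter with 6 to 17 and 3 to 17 counts per library, and they did so through the tumours alone, so their direction was fixed by the filter. The other members ranged in mean level from 60.9 CPM (Rpl22l1) to 1018 CPM (Rpl4). All cells need these 4 core proteins, so their rows near 0 do not measure expression. How the counting treated reads shared with near-identical copies is not given in the sources used here, and the same limit applies in part to every member. The 6 ribosomal pseudogene symbols of the table held 160 counts over all libraries together.

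On the TMM scale, 75 of the 77 tested members had a log2 fold change above 0 (DKO tumour over WT intestine), against 51% of all 13866 tested genes. The median was 0.31 over members, with quartiles at 0.21 and 0.43, and 0.016 over all tested genes. The tumours were higher than every WT library, without overlap, in 38 members (49.4%), against 25.1% of all tested genes, and Rps27l was the member that was lower without overlap, as were 22.9% of all tested genes. Despite this common direction, 6 members rose by edgeR's quasi-likelihood test at a Benjamini-Hochberg adjusted p under 0.05, and 0 fell. These were 7.79% of the tested members, below the 15.9% of all tested genes that rose, while 13.8% of all tested genes fell (29.7% in either direction). By unadjusted p under 0.05, 28 members (36.4%) were higher in tumours and 0 lower, where 22.1% of all tested genes were higher and 20.5% lower. Without Rpl34 and Rps27, whose direction the filter fixed, 73 of 75 members had a log2 fold change above 0, 36 (48%) were higher without overlap and 27 were higher by unadjusted p. The 6 members that rose do not include them. Without WT intestine 1 the median was 0.43 and 38 members rose (15.6% of all genes rose), whereas without WT intestine 2, WT intestine 3, DKO tumour 2 or DKO tumour 3 none of the members passed. Rises among all genes then numbered 1149 of 13718, 1568 of 13655, 1442 of 13567 and 1028 of 13579, in that order. They numbered 2211 of 13866 with all 6 libraries.

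**Figure D2:**
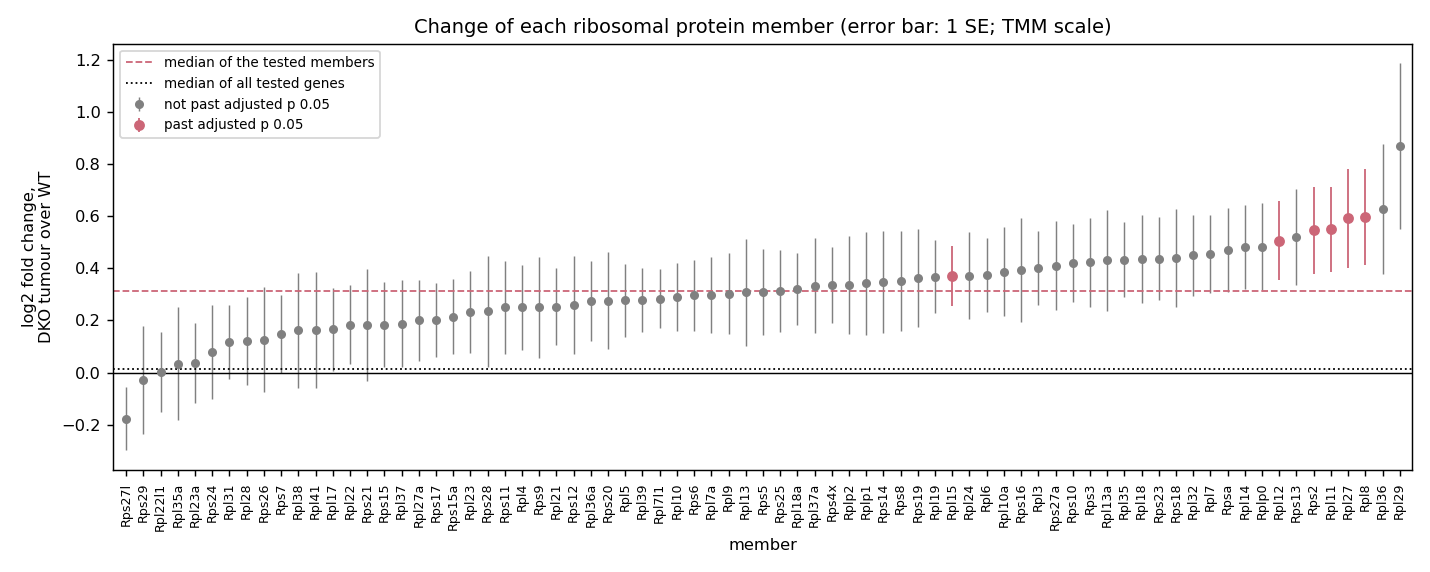
Log2 fold change of DKO tumour over WT intestine for the 75 members with a mean of at least 10 CPM, in rising order, with 1 SE from the edgeR fit to 3 libraries per group. Coloured points passed an adjusted p of 0.05, the dashed line marks the median of the tested members at 0.31 and the dotted line that of all tested genes at 0.016.

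Of the members that rose, 5 belong to the large subunit. Rpl8, which lies near the peptidyl transferase centre (chromosome 15, 76904078 to 76906314), was at 529.8, 408 and 428 CPM in WT intestine 1 to 3 and at 595, 775 and 696 CPM in DKO tumours 1 to 3. It had a log2 difference of 0.60 (SE 0.185; adjusted p by edgeR 0.0437). Rpl27 (chromosome 11, 101442298 to 101445529) was at 65.2, 42.8 and 47.2 CPM and at 67.8, 89.6 and 76.5 CPM, with a log2 difference of 0.59 (SE 0.19; adjusted p by edgeR 0.0493). In both genes WT intestine 1 was the highest WT library and came close to the lowest tumour, DKO tumour 1.

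Rpl11 forms a complex with Rpl5 and 5S ribosomal RNA that binds the p53 regulator Mdm2 when ribosome assembly is disturbed. It (chromosome 4, 136028265 to 136053428) was at 217, 175 and 156 CPM in WT intestine and at 256, 282 and 264 CPM in tumours, a log2 difference of 0.55 (SE 0.162; adjusted p by edgeR 0.0373). Its partner Rpl5 was at 307, 288 and 262 CPM and at 337, 357 and 344 CPM, with a log2 difference of 0.28 (SE 0.141; adjusted p by edgeR 0.171), so its groups did not overlap and it did not pass. The difference between the partners was not tested. Rpl12, at the base of the ribosomal stalk (chromosome 2, 32961559 to 32965345), was at 331, 319 and 291 CPM and at 432, 488 and 416 CPM, with a log2 difference of 0.51 (SE 0.15; adjusted p by edgeR 0.0378). Rpl15, one of the large subunit proteins mutated in human Diamond-Blackfan anaemia (chromosome 14, 18267823 to 18271391), was at 89.5, 91.9 and 92.8 CPM and at 114, 125 and 116 CPM. Its log2 difference of 0.37 (SE 0.114; adjusted p by edgeR 0.0428) was the smallest of the 6, and its WT libraries lay closest together.

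In the small subunit Rps2 rose, a protein near the entry of the messenger RNA channel (chromosome 17, 24718116 to 24721929). It was at 400.1, 350.3 and 331 CPM in WT intestine 1 to 3 and at 491, 599 and 488 CPM in DKO tumours 1 to 3, with a log2 difference of 0.55 (SE 0.166; adjusted p by edgeR 0.0413). Every tumour was above every WT library in each of the 6 members that rose, on the TMM scale and on library totals alike. These members were picked by a test on the same 6 libraries, so this separation adds no support to the calls. All 6 calls ended without WT intestine 2, WT intestine 3, DKO tumour 2 or DKO tumour 3, and all 6 held without WT intestine 1. Without DKO tumour 1 the call of Rpl15 ended (edgeR adjusted p = 0.0515) and the other 5 held.

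The stalk proteins, which recruit translation factors, did not pass with all 6 libraries. Rplp0, the anchor of the stalk, was at 619.8, 571 and 609.6 CPM and at 775, 953 and 788 CPM, a log2 difference of 0.48 (SE 0.168; adjusted p by edgeR 0.0628), and its groups did not overlap. Its acidic partner Rplp1 was at 651, 457 and 449.9 CPM and at 606, 695 and 674 CPM (edgeR adjusted p = 0.219). The other partner, Rplp2, was at 282, 196 and 186 CPM and at 267, 290.3 and 281 CPM (edgeR adjusted p = 0.208). In Rplp1 WT intestine 1 lay within the tumour range, as it did in Rplp2, and the other WT libraries lay below it. Without WT intestine 1, Rplp1 (0.53, edgeR adjusted p = 0.0358) and Rplp2 (0.54, edgeR adjusted p = 0.0201) rose, and without DKO tumour 1 Rplp0 rose (0.55, edgeR adjusted p = 0.0495). All 3 rose by library totals.

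Rps6, the substrate of the S6 kinases downstream of mTORC1, was at 202, 196 and 169.8 CPM in WT intestine and at 242, 233 and 223 CPM in tumours, without overlap (log2 fold change 0.30, edgeR adjusted p = 0.137). Rps19, the protein most often mutated in human Diamond-Blackfan anaemia, was at 164, 110.2 and 107 CPM and at 155, 176 and 159 CPM (edgeR adjusted p = 0.18), with WT intestine 1 inside the tumour range. Rpsa, a small subunit protein also known as the laminin receptor precursor, was at 416, 341 and 343 CPM and at 494, 549 and 479 CPM, without overlap (log2 fold change 0.47, edgeR adjusted p = 0.0593). The large subunit protein Rpl29 had the largest log2 fold change of the members above 10 CPM, 0.87 (SE 0.317, edgeR adjusted p = 0.0723), and was chosen after its values were seen. It was at 83.6, 38.5 and 41.4 CPM and at 75.2, 120.4 and 103 CPM, so WT intestine 1 lay above DKO tumour 1. Without WT intestine 1, Rps19 (0.58, edgeR adjusted p = 0.0142), Rpsa (0.56, edgeR adjusted p = 0.0273) and Rpl29 (1.30, edgeR adjusted p = 0.00799) rose, and Rps6 did not pass (0.34, edgeR adjusted p = 0.0863).

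WT intestine 1 set the spread of many members. Among the 75 members above 10 CPM it was the highest WT library in 70 on the TMM scale and in 54 on library totals. Its log2 ratio to the mean of WT intestine 2 and 3 had a median of 0.36, from -0.045 (Rpl15) to 1.07 (Rpl29). The median ratio was nearly as high, 0.33, over 766 tested genes that are no members, with transcripts of 66 to 998 bases. A high ratio in WT intestine 1 was thus not particular to the members, and the difference between these medians was not tested. Across the 75 members the ratio was higher in those of shorter coding length (Spearman rho = -0.56, 75 members of the same libraries). The log2 fold change between the groups was higher in those of longer coding length (rho = 0.45, the same 75 members, with WT intestine 1 in both measures). When the trend of level with transcript length, drawn from genes that are no members, was taken out of each library, the median over members was 0.39 and 27 members rose, where 17.1% of all genes rose. That setting was chosen after seeing the data.

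**Figure D3:**
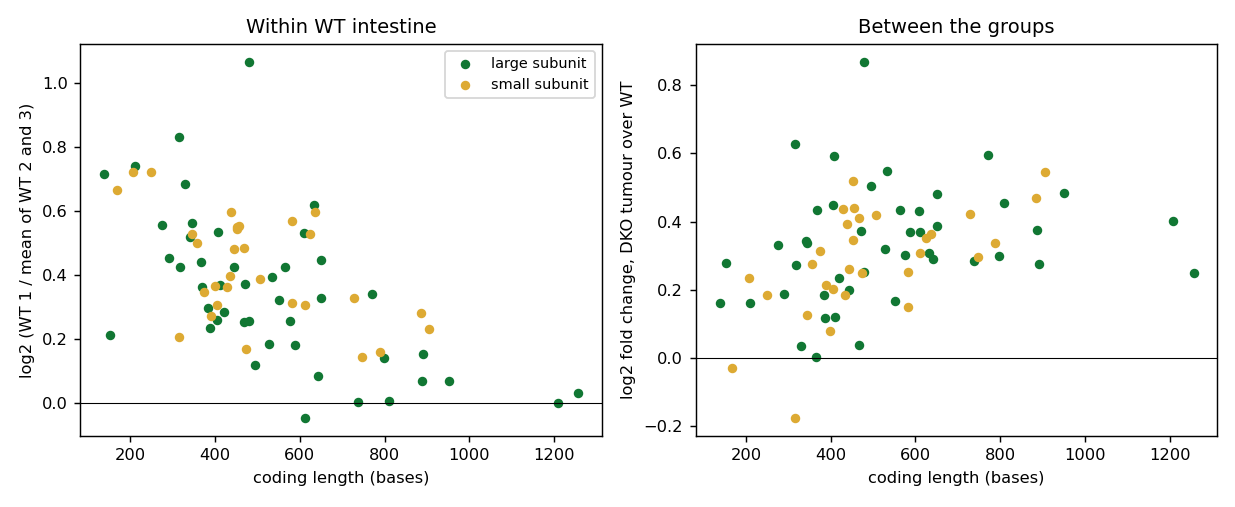
Left, log2 ratio of WT intestine 1 to the mean of WT intestine 2 and 3 against coding length in bases, for the 75 members above 10 CPM. Right, log2 fold change of DKO tumour over WT intestine against the same lengths; short members are high in WT intestine 1 (rho = -0.56) and tend to lower changes (rho = 0.45).

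The number of members called depended on the scaling. By library totals 77 of 77 members had a log2 fold change above 0, with a median of 0.58 where all tested genes had 0.27. In that setting 63 members rose, against 27.2% of all genes. The 77 include Rpl34 and Rps27, whose direction the filter fixed, and the 63 include Rpl34 (edgeR adjusted p = 0.0457). Relative to the median of all tested genes, the member median was 0.31 by library totals and 0.30 on the TMM scale. By upper-quartile factors 21 members rose (19.3% of all genes), and by DESeq2 size factors 3 rose (15.4%). DESeq2's own test called 17 members, where it called 16.8% of all genes as higher. The tumours lay above all WT libraries in 74 members on library totals, against 40.1% of all tested genes. Without Rpl34 and Rps27 the members above all WT libraries numbered 72 of 75. Member medians lay above the median of all genes under each of these scalings, and 0 members fell under any of them. A scaling factor shifts all genes of a library alike, so the gap between these medians was nearly fixed in advance across scalings.

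**Figure D4:**
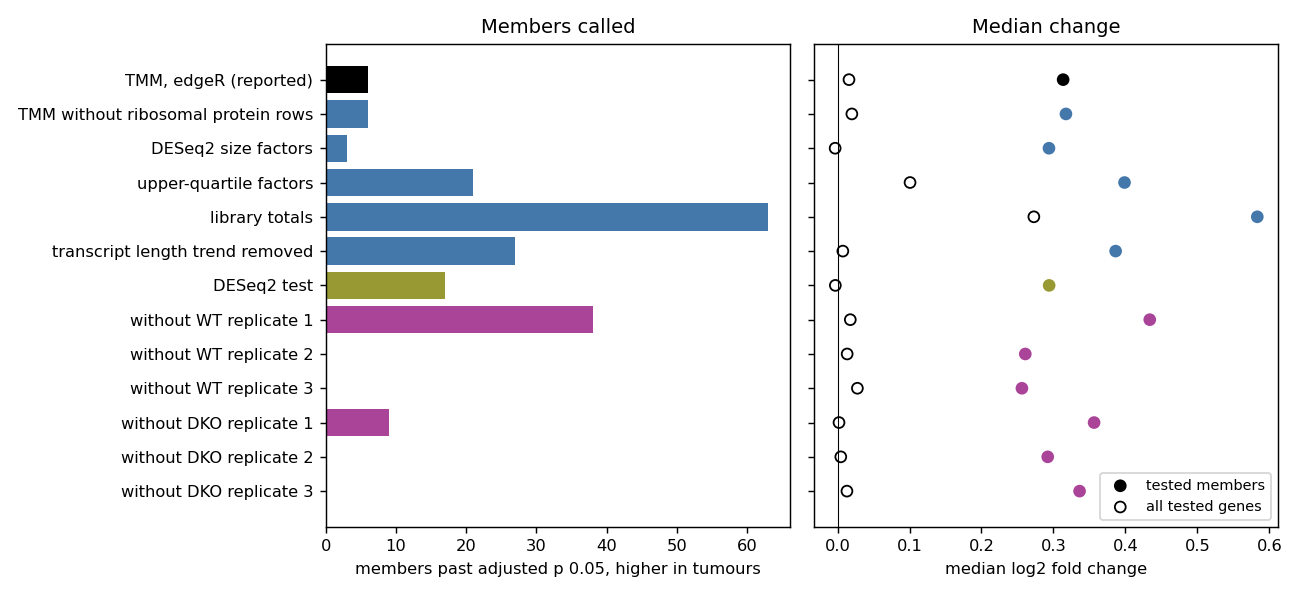
Left, members past an adjusted p of 0.05 and higher in DKO tumours under each scaling, test or left-out library, with 6 as reported and up to 63 by library totals. Right, median log2 fold change of the tested members (filled) and of all tested genes (open). Members lie to the right of all genes in every setting shown, a gap that a change of scaling alone leaves nearly fixed.

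A fit that used the members' own summed counts as library size asked which members moved apart from the rest. This comparison does not depend on the scaling of libraries. Of the 75 members above 10 CPM, 66 lay within 0.25 of the sum on the log2 scale, and the quartiles lay at -0.12 and 0.092. In this fit 1 member fell and 0 rose, where 28% of all tested genes fell and 7.48% rose. By unadjusted p under 0.05 the members in either direction numbered 3, where 47.2% of all tested genes passed. Using the members' sum as library size centres the members near 0, whereas other genes also carry the shift of that sum. Low member counts beside all genes were thus largely fixed in advance and do not show that members moved together more than other genes. The member that fell was Rps27l, a paralog of Rps27 that p53 induces in human and mouse cells. It made up 0.673%, 0.733% and 0.731% of the members' counts in WT intestine 1 to 3 and 0.52%, 0.469% and 0.511% in DKO tumours 1 to 3. Its log2 change relative to the sum was -0.51 (SE 0.134, edgeR adjusted p = 0.0212), the groups did not overlap, and the change was -0.47 to -0.55 when any 1 library was left out. The call ended without WT intestine 2, WT intestine 3, DKO tumour 2 or DKO tumour 3 (edgeR adjusted p = 0.0743 to 0.0902). Without WT intestine 1, Rpl29 (0.86) and Rpl36 (0.50) were higher relative to the sum, each past the threshold (edgeR adjusted p = 0.0119 and 0.0344).

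On the TMM scale Rps27l itself was at 140.1, 124 and 119 CPM in WT intestine and at 113, 111.5 and 114 CPM in tumours (log2 fold change -0.18, SE 0.122, edgeR adjusted p = 0.304). Its sign turned to 0.088 by library totals, so these data give no direction for its level. Rps29, a short zinc-binding protein of the small subunit, was at 270.2, 172 and 169 CPM and at 193, 216 and 189 CPM (log2 fold change -0.028, edgeR adjusted p = 0.927), and without WT intestine 1 its value was 0.22. Rpl22l1 was at 73.8, 56.1 and 52.7 CPM and at 61.2, 62.6 and 59.2 CPM (edgeR adjusted p = 0.987). For these members the groups overlapped or the sign depended on scaling.

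Paralog pairs were compared by the ratio of their counts within a library, which no scaling changes. Of 6 pairs, 3 had counts enough, and with 3 libraries per group the exact permutation test cannot go below p = 0.1. Rpl22l1 is the paralog of the RNA-binding protein Rpl22, which in mouse represses it. The log2 ratio of Rpl22l1 to Rpl22 was -1.59, -1.74 and -1.71 in WT intestine and -1.96, -1.83 and -1.77 in tumours, a difference of -0.17 without overlap (two-sided exact permutation p = 0.1, adjusted over 3 ratios 0.15). The log2 ratio of Rpl7l1 to Rpl7 was -2.69, -2.76 and -2.61 and -2.94, -2.90 and -2.74, with overlapping groups (exact permutation p = 0.2, adjusted 0.2). For Rps27l and Rps27 the ratio differed by -1.16 (exact permutation p = 0.1, adjusted 0.15), but it rests on the 3 to 17 counts of the Rps27 row and does not describe that pair. Rpl3l had 10, Rpl10l 2 and Rpl39l 1 counts over all libraries together, against at least 3868 per library for Rpl3, 2464 for Rpl10 and 912 for Rpl39.

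Levels per coding length differed among members. Reads come from whole messengers, so division by coding length raises the value of messengers with a small coding part. The coding part was 138 of 509 bases in Rpl41, 168 of 390 in Rps29 and 342 of 499 in Rplp1. The values are thus not read as differences in protein number. Over the 75 members above 10 CPM the level per kilobase of coding sequence (mean of 6 libraries) had a median of 489 CPM per kilobase. The highest were Rplp1 with 1722, Rpl41 with 1689 and Rps29 with 1199.6 CPM per kilobase, and the lowest was Rpl7l1 with 108 CPM per kilobase, below Rpl27 with 159. The stalk holds more than 1 copy of the acidic proteins Rplp1 and Rplp2, and Rplp2 was at 726 CPM per kilobase. Across members the log2 fold change was nearly unrelated to this level (Spearman rho = -0.098, 75 members). Members lay on 19 chromosomes, with 14 of them on chromosome 7 and 4 on the X chromosome.

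Of 4 more ribosomal proteins that lie outside the rule, 0 passed the test. Gnb2l1, now called Rack1, a scaffold on the small subunit, was at 684, 619 and 626 CPM and at 766, 875 and 764 CPM (log2 fold change 0.32, edgeR adjusted p = 0.169), and Rps3a1 had a log2 fold change of 0.29 (edgeR adjusted p = 0.242). Fau encodes a small subunit protein fused to a ubiquitin-like sequence. It was at 305, 169.6 and 158 CPM in WT intestine and at 179, 183 and 204 CPM in tumours (log2 fold change -0.16, edgeR adjusted p = 0.663). Its groups overlapped, and its value turned to 0.13 by library totals and to 0.20 without WT intestine 1. Rpl36al was at 0.056 (edgeR adjusted p = 0.805).

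Genes that build ribosomes rose together. Of 91 tested ribosome biogenesis genes, 58 rose and 0 fell, with a median log2 fold change of 0.61, beside 6 of 77 and 0.31 for the members and 15.9% and 0.016 for all tested genes. The difference between this list and the members was not tested. Rises among these 91 genes numbered 56 to 73 under the other scalings, and 27, 35 and 26 without WT intestine 2, DKO tumour 2 and DKO tumour 3. Nsun2, an RNA cytosine methyltransferase, averaged 97 CPM in WT intestine (SD 6.68, n = 3) and 189 CPM in tumours (SD 14, n = 3), which on the log2 scale is 0.96 (SE 0.13; edgeR adjusted p = 0.00189). Polr1e, a subunit of RNA polymerase I, was at 5.66, 5.34 and 5.25 CPM and at 11.6, 13 and 11.9 CPM (log2 fold change 1.17, edgeR adjusted p = 0.0024). Nop14, a small subunit processing factor, rose by 0.99 and Lsg1, a GTPase of late large subunit assembly, by 0.98 on the log2 scale. In these 4 genes every tumour lay above every WT library, which their choice by smallest adjusted p largely fixed. Tumours were higher without overlap in 69 of the 91 genes, against 25.1% of all tested genes.

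Messengers of other TOP genes were also counted. Among 24 translation factors and other TOP genes, 5 rose (20.8%, against 15.9% of all tested genes) and 0 fell, with a median of 0.35. They included Nap1l1, a histone chaperone, which averaged 52.7 CPM in WT intestine and 106 CPM in tumours (edgeR adjusted p = 0.0014), and Npm1, nucleophosmin, at 229, 276 and 249 CPM and at 419, 417 and 418 CPM (log2 fold change 0.73, edgeR adjusted p = 0.00872). Eif3e and Eif3f, subunits of initiation factor 3, rose by 0.55 and 0.51. Of 34 other translation factors 15 rose and 1 fell (median 0.42), among them Eif2b3 and Eif2s2 of the initiator tRNA pathway, by 1.29 and 1.11. Of 11 hosts of small nucleolar RNAs 3 rose (27.3%) and 0 fell (median 0.49), namely Snhg4, Snhg3 and Snhg7. With WT intestine 2 or 3 or DKO tumour 2 or 3 left out, rises numbered 2 to 3 of 24 TOP genes and 4 to 7 of 34 other factors. The calls of Eif3e and Eif3f ended when WT intestine 3 or either of DKO tumours 2 and 3 was left out, and that of Eif3f also with WT intestine 2 left out. Rises among the hosts numbered 8 without WT intestine 1 and 1 without WT intestine 2, WT intestine 3 or DKO tumour 3.

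**Figure D5:**
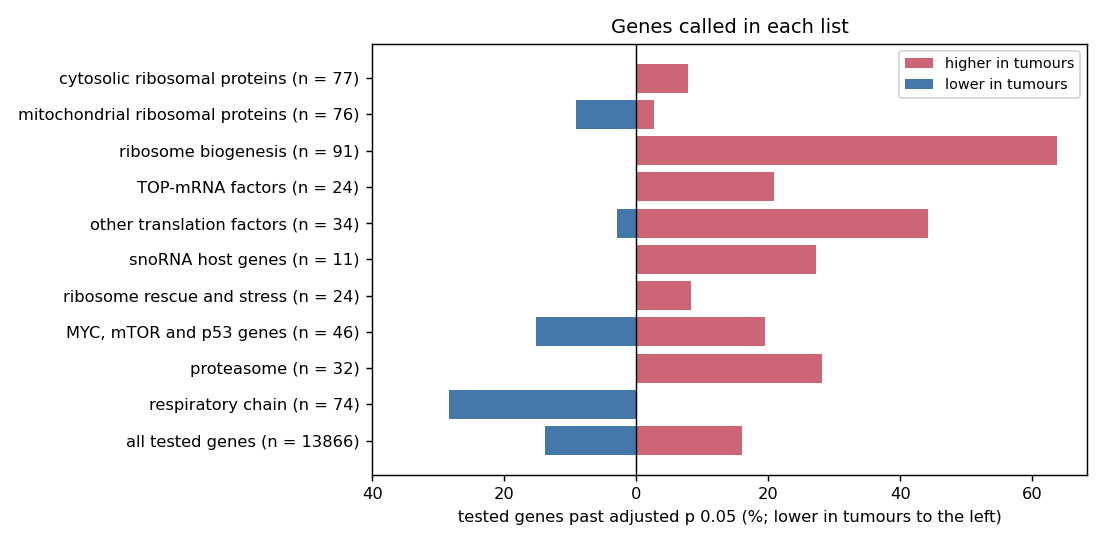
Percent of the tested genes of each list that passed an edgeR adjusted p of 0.05 in DKO tumours against WT intestine, higher to the right and lower to the left, with the number tested beside each name. Ribosome biogenesis stands at 63.7% higher, cytosolic ribosomal proteins at 7.79% and all tested genes at 15.9%.

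Of 46 regulators of ribosome production 9 rose (19.6%) and 7 fell (15.2%), shares near those of all tested genes (15.9% and 13.8%). Myc was at 21.5, 22 and 26.1 CPM in WT intestine and at 33.7, 42.2 and 34.4 CPM in tumours, a log2 difference of 0.66 (SE 0.152; adjusted p by edgeR 0.0153) without overlap. Mxd1, a repressor that competes with MYC for its partner Max, went from 907 to 429 CPM (log2 fold change -1.08, edgeR adjusted p = 0.00613). Eif4ebp1, a translation repressor inactivated by mTORC1, was at 21.5, 15.7 and 12.3 CPM in WT intestine and at 27.8, 52.8 and 43.3 CPM in tumours (log2 fold change 1.33, edgeR adjusted p = 0.0116). Ddit4, which restrains mTORC1, averaged 21.9 and 80 CPM (edgeR adjusted p = 0.00284). Sesn1, a p53 target that also restrains mTORC1, fell from 184 to 39.2 CPM (log2 fold change -2.23, SE 0.143, edgeR adjusted p = 0.000128). Mtor, at 49.5 and 59.7 CPM (edgeR adjusted p = 0.231), and Larp1, at 201 and 223 CPM (edgeR adjusted p = 0.466), did not pass. When WT intestine 2 was left out, the calls of Myc and Eif4ebp1 ended, and 1 regulator rose and 2 fell. With DKO tumour 2 left out 4 rose and 4 fell, and with DKO tumour 3 left out 3 rose and 2 fell.

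Mitochondrial ribosomal proteins, the respiratory chain and the proteasome were counted alongside, where 15.9% of all tested genes rose and 13.8% fell. Of 76 mitochondrial ribosomal proteins 2 rose and 7 fell, with a median log2 fold change of -0.016 that became 0.25 by library totals, where 16 rose and 1 fell. Without WT intestine 1, 6 rose and 4 fell (median 0.056). Without WT intestine 2 or DKO tumour 3, 1 rose and 1 fell, without WT intestine 3, 1 rose and 6 fell, and without DKO tumour 2, 1 rose and 2 fell. Mrps15 went from 51.2 to 31 CPM (log2 fold change -0.72, edgeR adjusted p = 0.00513), and Mrps6 rose by 1.11. Of 74 nuclear-encoded respiratory chain genes 0 rose and 21 fell, with a median of -0.62, while 4 fell by library totals (median -0.33), 9 by upper-quartile factors and 42 by DESeq2's test. Those falls numbered 7, 3, 3 and 1 without WT intestine 1, WT intestine 2, DKO tumour 2 and DKO tumour 3. Ndufa4 was at 309, 254 and 221 CPM and at 151, 131 and 156 CPM (edgeR adjusted p = 0.00901). Of 32 proteasome subunits 9 rose and 0 fell (median 0.23), while 22 rose by library totals, 0 without WT intestine 2 or DKO tumour 3, 3 without WT intestine 3 and 2 without DKO tumour 2. Differences between these lists and the members were not tested. Of 24 ribosome rescue and stress genes 2 rose (8.33%) and 0 fell (median 0.14). These were the nuclear import receptor Ipo5 and the snoRNP assembly factor Nufip1, and both calls ended without WT intestine 2.

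Cell type markers moved with the groups. The summed level of 15 enterocyte markers was 58268 to 94874 CPM in WT intestine and 29428 to 35869 CPM in tumours (0 rose, 11 fell), and that of 8 Paneth cell markers was 12799.8 to 15670.2 CPM and 290.02 to 789 CPM (7 fell). The 7 goblet cell markers summed to 8444 to 9435 CPM and 3898 to 7045 CPM, and 8 smooth muscle markers to 1493 to 1891 CPM and 742 to 1119 CPM. The 9 fibroblast markers summed to 353 to 499.9 CPM and 1045 to 1456 CPM (6 rose), and 6 endothelial markers to 51 to 64.9 CPM and 88 to 123 CPM (3 rose). Sums overlapped between the groups for 10 stem and cycling cell markers (665 to 1299.9 and 538 to 711 CPM), 12 leukocyte markers (1592 to 1946 and 1026 to 3340.2 CPM) and 8 myeloid markers (97.4 to 149 and 118 to 151 CPM). For the stem and cycling cell markers the overlap came from WT intestine 1 at 665 CPM. WT intestine 2 and 3 were at 1235 and 1299.9 CPM, above every tumour. Single genes in the stem and cycling cell, leukocyte and myeloid lists still passed. Of the myeloid markers 4 rose and 0 fell, of 11 tested leukocyte markers 2 rose and 1 fell. Among stem and cycling cell markers 1 rose and 2 fell. None of these markers was at 0 in all libraries. The part of these shifts in the ribosomal protein results was not tested. The Paneth, enterocyte, goblet and smooth muscle sums were lower in every tumour than in every WT library.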

How the data were processed

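Raw read counts per gene symbol were deposited by the authors as 1 table with 1 column per sample, 3 WT intestine and 3 DKO tumour. STAR, DESeq2 and the build mm10 are named, per the submitters' processing notes, with no version. Which counter, gene models and strand option were used is not given in the sources used here. The sheet's title names normal DKO tissue, and its column headers, which match the tumour samples, were followed. Of 23420 rows, 27 held a spreadsheet date for a name and were set aside (0.218% to 0.24% of a library). CPM values were computed from the counts.

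The 13866 genes that reached 10 counts in 3 libraries entered edgeR's quasi-likelihood test (version 4.0.16, R 4.3.3, TMM factors), with Benjamini-Hochberg adjusted p-values over all of them and a threshold of 0.05. SE is the log2 fold change divided by the root of the F statistic. The common dispersion had a square root of 0.227. On counts simulated with the fitted dispersions, the fit recovered 0 of 100 genes changed 1.5-fold and 39 of 100 changed 2-fold. Of its 43 calls, 4 were false. The genes changed 1.5-fold had a median estimated log2 fold change of 0.542, above the member median of 0.31. Few genes were changed in the simulation, whereas 29.7% of tested genes passed in the data, so recovery in the data may differ. Coordinates and lengths are those of GENCODE M21 (mm10), using the transcript with the longest coding sequence, and 94.2% of the tested genes matched. Alternatives were DESeq2 1.42.0, other scalings and filters, a replicate block and leaving out each library.

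The members and the gene lists were chosen with earlier results of these data known. Named genes were the targeted pair, the largest rises and falls among members called, members apart from the members' sum, the highest and lowest levels per coding length, 6 paralog pairs, 8 fixed members and up to 4 called genes per list. The text prints part of them, and 1 gene of a list is not reported here. Reads carried no molecular identifiers, so intervals cover counting error only.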

Additional observations from a re-analysis of the deposited data

How the results depend on the processing

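Of the 77 tested members, 6 rose as reported. The count was 17 with DESeq2's test (16.8% of all genes rose), 3 with its size factors (15.4%) and 21 with upper-quartile factors (19.3%). It was 63 with library totals (27.2%), among them Rpl34, whose direction the filter fixed. It was 2 with no filter (11.9%) and 27 with the transcript length trend removed (17.1%, chosen after seeing the data). It was 0 at an adjusted p under 0.01 and 0 for a minimum log2 change of 0.5, where 1010 of 13866 genes rose. Leaving out each library gave 0 to 38, while rises among all genes numbered 1028 to 2216. None of the members fell under any setting. The median log2 fold change was 0.58 by library totals and 0.26 to 0.43 with 1 library left out, and the share kept its direction throughout (0.783 to 0.888 percentage points). Relative to the members' sum, 0 to 2 members rose and 0 to 1 fell with 1 library left out. The count of all genes called was 4122 as reported and 1866 to 4275 with 1 library left out.

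The replicate numbers showed no sign of pairing. Deviation correlations of same-numbered libraries were 0.016, -0.002 and -0.031, and those of differently numbered libraries ran from -0.115 to 0.111. With 3 libraries per group these values cannot settle whether samples were paired. With a replicate block 0 members rose, and 0 fell relative to the members' sum, where 3296 of all genes passed.

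Signs turned for members near 0. Rps29 was at 0.060 by upper-quartile factors, 0.25 by library totals, 0.0055 with the replicate block, 0.15 with the length trend removed and -0.14 to 0.22 with 1 library left out. Rpl22l1 was at -0.016 by DESeq2's test and by its size factors and from -0.083 to 0.16 with 1 library left out. Rps27l was at 0.088 and Fau at 0.13 by library totals, and with 1 library left out Fau ranged from -0.32 to 0.20 and Rpl36al from -0.014 to 0.19. The cause was not tested. The rows of Rpl26, Rpl30, Rpl34 and Rps27 hold at most 17 counts in a library, and the cause of that was not tested. Of 35 genes outside the members that passed and were chosen by the naming rule, 16 lost the call without WT intestine 2, 15 without DKO tumour 3, 7 without DKO tumour 2, 6 without WT intestine 3 and 1 each without WT intestine 1 and DKO tumour 1.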
